A study of Mus musculus with 12 samples.

Results

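The synaptic vesicle and release machinery is described here through 47 genes, out of 55487 in the deposited tables. They were chosen by symbol as synaptotagmins, SV2 proteins, complexins, SNAREs, synapsins, active zone proteins and other vesicle proteins, and all 47 were found and passed the filter on low counts in every comparison. The genes were followed in mice in which exon 7 of Auts2, a gene needed for brain development, had been floxed and then deleted. RNA came from single male mice, 3 per group. At postnatal day 0 (P0) the forebrain of knockouts made with Cmv-cre, which deletes throughout the body, was compared with that of wild-type littermates on a BL6 background. At postnatal day 14 (P14) the hippocampus of knockouts made with Nes-cre, which deletes in neural progenitors and their progeny, was compared with that of mice with 1 floxed allele. Whether those P14 controls carried Cre is not given in the labels, so they had either intact alleles or 1 deleted allele. Cells outside the neural lineage, such as microglia and vessel cells, keep the exon under Nes-cre. Gene-level counts of Auts2 do not separate its long isoform from its short one, and they did not pass the test in either context (P0 log2 fold change 0.16 with edgeR adjusted p 0.362, P14 -0.30 with edgeR adjusted p 0.111).

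Neurotransmitter is loaded into synaptic vesicles by transporters, vesicles are held and brought to the active zone by synapsins, Rab3 proteins and scaffolds, and Unc13 and Rims proteins prime them for release. Fusion is driven by the SNARE proteins of vesicle and plasma membrane, held in check by complexins and triggered when a synaptotagmin binds calcium. Neurons build most of this machinery after birth, as synapses form in forebrain and hippocampus, and different neuron types use different paralogs of the same protein.

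A P0 library held 11247150 to 16796797 gene counts and a P14 library 16830720 to 23340621. The 47 genes took between 0.666% and 2.00% of them. Levels are given as CPM, a gene's reads scaled to the library's total, on 1 common scale for all 12 libraries. P0 knockout 3 and wild type 3 carry library numbers 1415 and 1416, and the other P0 libraries 1407 to 1410. Chi-square per degree of freedom was 3.10 and 4.03 within the earlier numbers and 8.65 to 13.2 across the 2 series. P14 control 3 stood apart from the other P14 controls (13.2 and 19.3, against 5.36 between those), and its choroid plexus and ependymal markers summed to 2528 CPM, against 158 and 969 CPM. Among the P14 knockouts the same markers summed to 1370 to 2024 CPM, and chi-square per degree of freedom ran from 6.87 to 12.4. The hippocampal lists were present in every P14 control: 10 dentate granule markers summed to 646 to 698 CPM and 10 CA pyramidal markers to 1138 to 1257 CPM. In wild-type P0 forebrain, 11 cortical excitatory markers summed to 1562 to 1937 CPM and 10 striatal projection markers to 377 to 424 CPM.

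The release genes were first compared between the control groups, to show the background on which the knockouts were read. In P14 control hippocampus 34 of the 47 genes were higher than in P0 wild-type forebrain and 8 were lower (edgeR adjusted p under 0.05). Of all 17355 genes tested in this comparison 64.7% passed, 32.5% upward and 32.2% downward. In 35 release genes every P14 control lay above every P0 wild type and in 8 below, which held for 34.8% and 34.3% of all genes. The median log2 fold change was 1.00 for the release genes and -0.0041 for all genes. Tissue, age, control genotype and library number series change together here and cannot be told apart.

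**Figure D1:**
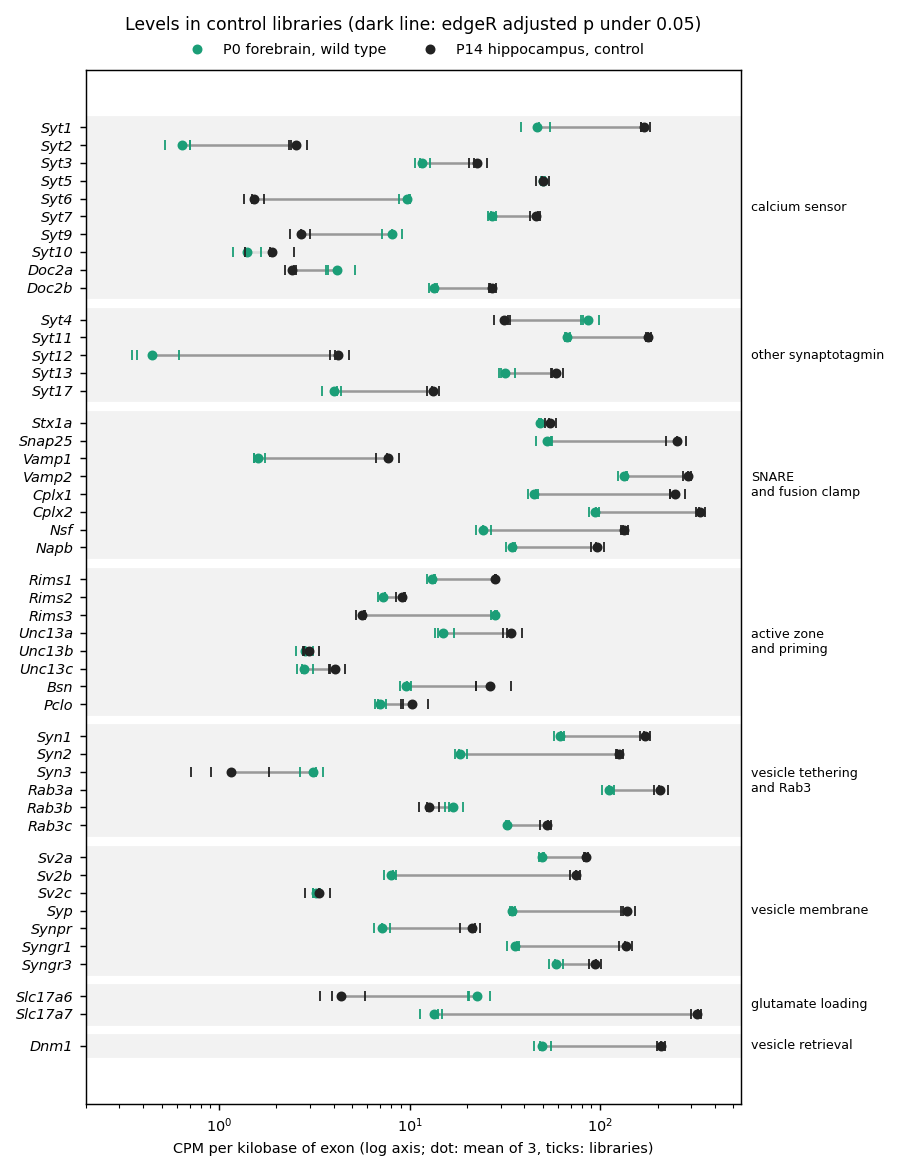
Mean level of each of the 47 genes in P0 wild-type forebrain and P14 control hippocampus, in CPM per kilobase of exon on a log axis, with ticks for the 3 libraries of each group. Slc17a7 moves furthest to the right, from 13.4 to 322, while Syt6, Slc17a6 and Rims3 move furthest to the left.

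The glutamate loaders moved in opposite directions. Slc17a7, the vesicular glutamate transporter of cortical and hippocampal excitatory neurons, stood at 61.4, 76.0 and 80.0 CPM in the wild-type P0 libraries and at 1620.1, 1753 and 1834 CPM in the P14 controls. Its log2 fold change of 4.57 (SE 0.11, edgeR adjusted p 1.77e-14) was the largest of the 47. Slc17a6, the transporter of thalamic and many immature neurons, stood at 109.7, 111 and 143 CPM at P0 and at 18.4, 21.1 and 31.5 CPM at P14 (log2 fold change -2.37, SE 0.22, edgeR adjusted p 0.000119). The groups did not overlap for either gene.

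The other 4 of the 5 largest rises were spread over the roles. Syt12, a vesicle synaptotagmin that does not bind calcium, rose by 3.26 on the log2 scale, from 1.93 to 3.40 CPM at P0 to 21.1 to 26.6 CPM at P14. Sv2b, a glycoprotein of the vesicle membrane, rose by 3.21, from 61.8 to 70.7 CPM to 586 to 659 CPM. Syn2, a synapsin that tethers vesicles in clusters, rose by 2.76, from 121 to 139.9 CPM to 851 to 929 CPM. Cplx1, a complexin that binds the assembled SNAREs, rose by 2.46, from 91.1 to 103 CPM to 507 to 611 CPM. Their edgeR adjusted p ran from 5.83e-14 (Sv2b) to 3.41e-10 (Syt12). All 8 SNARE and clamp genes were higher at P14 in every library, and 7 of them passed, with a median log2 fold change of 2.04; Stx1a, the syntaxin of the plasma membrane, was the exception (0.18, edgeR adjusted p 0.0529).

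The 8 release genes that fell were Slc17a6, Syt6 (-2.67), Rims3 (-2.32), Syt9 (-1.60), Syt4 (-1.47), Syn3 (-1.44), Doc2a (-0.80) and Rab3b (-0.43), each with its log2 fold change. Syt6 went from 51.5 to 58.8 CPM at P0 down to 7.86 to 10.02 CPM at P14, and Rims3, a short Rims protein of the active zone, from 212.2 to 230.4 CPM down to 41.8 to 46.4 CPM. Syt9 went from 28.3 to 36.1 CPM to 9.36 to 11.97 CPM, and Syt4, a synaptotagmin of peptide-containing vesicles, from 309 to 382 CPM to 107 to 132 CPM. Syn3, the synapsin of young neurons, fell with P14 control 3 at 22.5 CPM, above the other P14 controls at 8.72 and 11.1 CPM. Syt5, Syt10, Unc13b, Sv2c and Stx1a did not pass.

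Levels can be compared between genes only per length, and on that scale the P14 hippocampus was led by the fusion proteins. Cplx2, a complexin, was the highest SNARE or clamp gene at 335 ± 18.0 CPM per kilobase of exon (SD, n = 3), followed by Vamp2, the vesicle SNARE, at 287 ± 14.3. Slc17a7 was the higher glutamate loader at 322 ± 20.1. Within the other roles the highest were Syt1, the calcium sensor of fast release, at 169.5 ± 11.0, Syt11, a synaptotagmin that does not bind calcium, at 178 ± 6.21, and Rab3a, the main vesicle Rab, at 207 ± 17.4. Syp, the vesicle protein synaptophysin, led the membrane proteins at 138 ± 13.2, less than 1 SD above Syngr1 at 136 ± 10.6. The active zone genes were lower: Unc13a, the main priming factor, led them at 34.1 ± 4.21. Dnm1, the dynamin that retrieves vesicles after fusion, stood at 208 ± 10.7.

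Promoter letters are shown for 5 release genes, because Sv2c and Slc17a7 were the 2 that passed at P0, Unc13c and Stx1a had the lowest adjusted p of the 47 genes at P14, and Syn1 held 2 of the rarer motifs searched. Each sequence is the 250 bases before the RefSeq start of the gene on GRCm38.p6, read 5′ to 3′ on the gene's strand, with motif matches in capitals. For Slc17a7 and Unc13c the RefSeq start was not found in the transcripts of the annotation used for the counts' gene names, so their windows rest on RefSeq alone. Sv2c lies at chr13:96132578-96132827 on the minus strand, Slc17a7 at chr7:45163671-45163920 on the plus strand, Unc13c at chr9:73969038-73969287 on the minus strand, Stx1a at chr5:135023232-135023481 on the plus strand and Syn1 at chrX:20920919-20921168 on the minus strand.
Sv2c: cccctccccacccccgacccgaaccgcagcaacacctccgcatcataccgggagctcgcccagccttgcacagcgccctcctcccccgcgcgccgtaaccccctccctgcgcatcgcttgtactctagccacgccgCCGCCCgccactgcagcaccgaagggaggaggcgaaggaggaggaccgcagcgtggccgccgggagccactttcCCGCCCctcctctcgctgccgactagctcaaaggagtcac
Slc17a7: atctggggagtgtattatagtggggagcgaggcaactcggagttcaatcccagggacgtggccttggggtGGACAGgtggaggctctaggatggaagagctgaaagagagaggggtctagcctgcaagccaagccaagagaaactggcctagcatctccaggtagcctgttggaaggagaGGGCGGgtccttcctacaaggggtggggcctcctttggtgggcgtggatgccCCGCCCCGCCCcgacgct
Unc13c: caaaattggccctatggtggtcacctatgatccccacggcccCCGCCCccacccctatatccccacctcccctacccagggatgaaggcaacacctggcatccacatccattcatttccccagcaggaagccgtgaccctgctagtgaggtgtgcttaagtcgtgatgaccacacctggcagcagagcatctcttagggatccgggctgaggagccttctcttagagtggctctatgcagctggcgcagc
Stx1a: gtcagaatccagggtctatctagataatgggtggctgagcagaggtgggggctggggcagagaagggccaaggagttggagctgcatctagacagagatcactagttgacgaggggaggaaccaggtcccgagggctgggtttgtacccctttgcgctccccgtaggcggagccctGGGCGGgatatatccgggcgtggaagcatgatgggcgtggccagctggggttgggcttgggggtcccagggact
Syn1: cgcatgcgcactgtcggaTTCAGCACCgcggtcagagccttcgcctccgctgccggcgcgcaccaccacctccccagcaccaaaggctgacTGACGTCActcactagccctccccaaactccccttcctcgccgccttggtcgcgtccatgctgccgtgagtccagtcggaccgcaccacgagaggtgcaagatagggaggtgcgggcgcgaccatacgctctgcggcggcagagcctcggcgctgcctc
RefSeq gave a promoter for 34 of the 47 genes, and the same 250 bases were searched on both strands in 27025 genes. The GC box letters GGGCGG were found in 26 of the 34 release genes (76.5%) and in 35.4% of all genes. The letters TTCAGCACC, the first part of the RE1 element bound by the repressor REST in non-neuronal cells, were found in Syn1 alone (2.94%, against 0.348% of all genes), as were those of the cyclic AMP response element, TGACGTCA (2.94%, against 1.77%). GGACAG, the second part of RE1, was in 9 release genes (26.5%, against 21% of all genes) and TATAAA in Rab3b and Sv2b (5.88%, against 14.3%). None of these motifs overlaps another in the 5 windows printed, apart from 2 GC boxes on the minus strand of Slc17a7 that share 1 base. A match is a description of letters, not a binding site.

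At P0 the release genes of the knockout forebrain lay mostly below those of wild-type littermates. Sv2c, the SV2 protein best known from the basal ganglia, and Slc17a7 fell, and no release gene rose (edgeR adjusted p under 0.05). Both were among the 0.909% of 16176 tested genes that passed in this comparison. The log2 fold change was below 0 for 43 of the 47 genes, against 50.1% of all genes, with a median of -0.24 and a range from -1.01 to 0.12. The median of all genes was -0.0003, and their quartiles lay between -0.15 and 0.13. An unadjusted p under 0.05 was reached downward by 27 release genes and upward by 0 (9.17% and 6.95% of all genes). In 20 release genes every knockout library lay below every wild-type library, which held for 11.1% of all genes, and in 0 every knockout library lay above (10.7%). In tissue RNA, fewer cells of a type and less RNA per cell cannot be told apart.

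**Figure D2:**
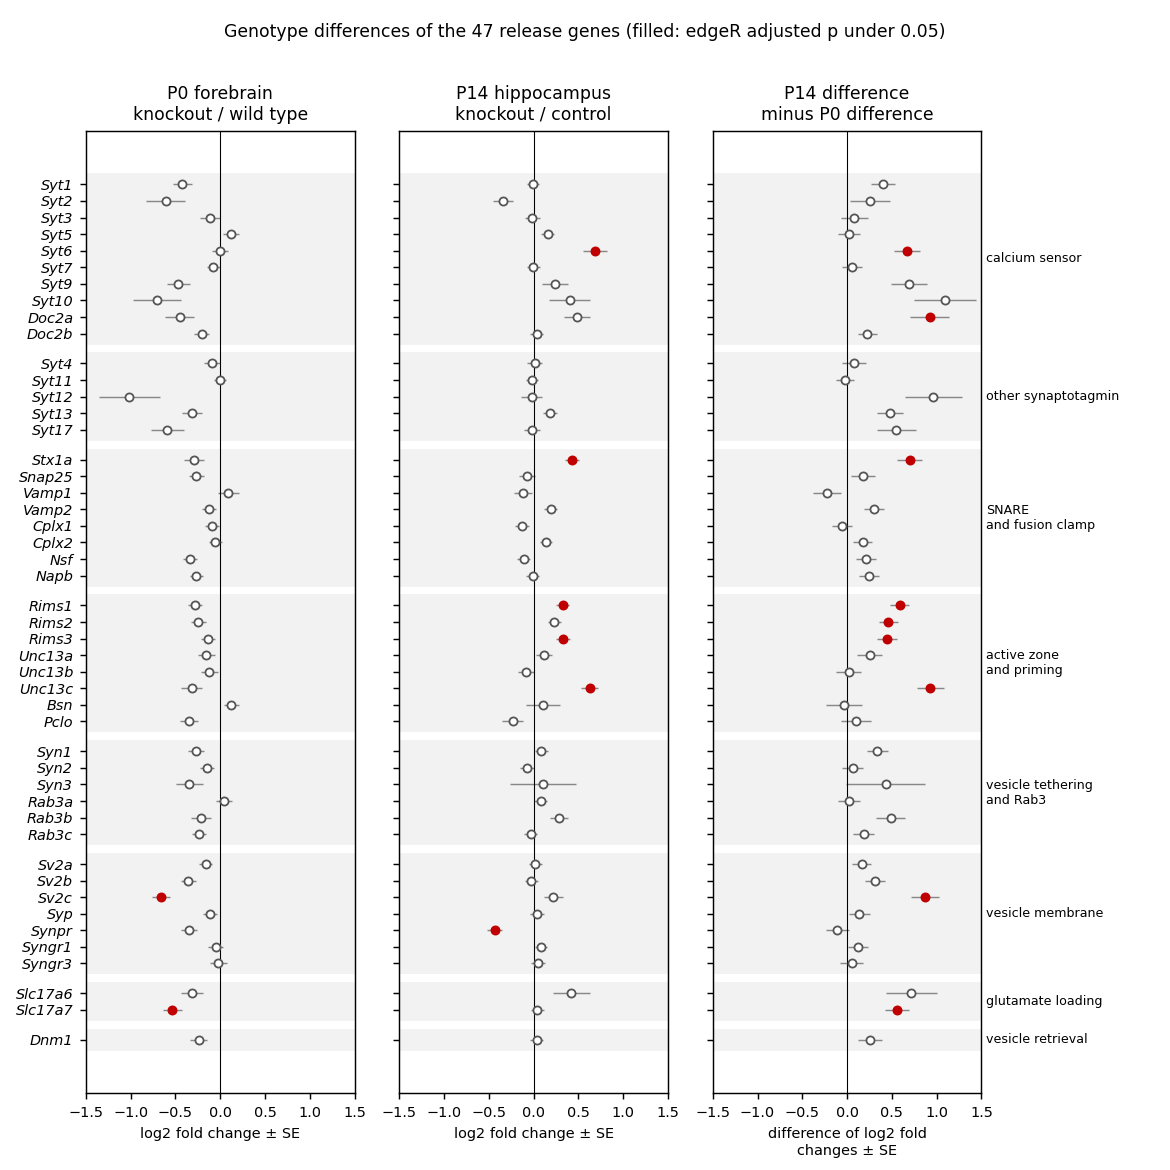
Log2 fold change ± SE of the 47 release genes for knockout against control at P0, at P14, and for the P14 difference minus the P0 difference, grouped by role; filled points have an edgeR adjusted p under 0.05. Most P0 points lie left of 0, the P14 points scatter around 0 with 6 filled, and 42 of the 47 points on the right lie above 0.

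Sv2c (ENSMUSG00000051111, chromosome 13 from 95954594 to 96132577) stood at 30.2, 30.3 and 32.9 CPM in the wild-type libraries and at 17.7, 20.6 and 20.9 CPM in the knockouts. The knockouts lay well below the wild types, and the groups did not overlap. Its mean went from 31.1 ± 1.54 to 19.7 ± 1.81 CPM (SD, n = 3 each), a log2 fold change of -0.66 (SE 0.10, edgeR adjusted p 0.0197). In mean log2(CPM + 1) the difference was -0.64 within library numbers 1407 to 1410 and -0.63 between 1416 and 1415.

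Slc17a7 (ENSMUSG00000070570, chromosome 7 from 45163949 to 45176142) stood at 76.0, 61.4 and 80.0 CPM in the wild types and at 46.2, 49.6 and 54.6 CPM in the knockouts. Again the groups did not overlap, with wild type 2 nearest to the knockouts. The log2 fold change was -0.54 (SE 0.11, edgeR adjusted p 0.0368). In mean log2(CPM + 1) the differences were -0.50 and -0.54 in the earlier and the later library numbers. Slc17a6 had a log2 fold change of -0.32 and also separated the groups, but did not pass (edgeR adjusted p 0.219). With 1 library left out Sv2c passed in 2 of 6 fits and Slc17a7 in 1. Neither passed in the larger strand column, which held 50.02% to 50.12% of the counts of both strands in the P0 libraries. Of all genes 0.685% passed in that column, against 0.909% in the main fit.

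Among the calcium sensors 6 of 10 separated the genotypes downward (11.1% of all genes did), and none passed. Syt1 stood at 453, 400.1 and 319 CPM in wild types and at 297, 300.2 and 279 CPM in knockouts (log2 fold change -0.42, edgeR adjusted p 0.0811), with wild type 3 close to the knockouts. The others were Syt2 (-0.61), a fast sensor of inhibitory and hindbrain neurons, Syt9 (-0.47), a sensor of striatal and limbic neurons, Syt10 (-0.70), Doc2a (-0.45) and Doc2b (-0.21), the last of which are high-affinity sensors of spontaneous and delayed release. Syt3 (-0.12), Syt7 (-0.08) and Syt5 (0.12) overlapped between genotypes, and Syt6 differed by -0.0029. Syt9 stood at 32.2, 36.1 and 28.3 CPM in wild types and at 22.2, 20.1 and 27.3 CPM in knockouts, with knockout 3 just under wild type 3. Syt10 and Syt2 were scarce, at 2.18, 2.51 and 3.05 CPM and at 3.95, 5.35 and 5.37 CPM in wild types. Their knockouts were all lower, at 1.67, 1.49 and 1.63 CPM for Syt10 and at 3.50, 2.90 and 3.27 CPM for Syt2.

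Of the synaptotagmins outside that group, Syt12 had the lowest log2 fold change of all 47 genes (-1.01, SE 0.34, edgeR adjusted p 0.157). Its groups did not overlap, but it rested on 1.93, 3.40 and 2.05 CPM in wild types against 1.51, 0.829 and 1.27 CPM in knockouts. Syt17 stood at 21.7, 22.8 and 18.1 CPM in wild types and at 11.5, 10.9 and 18.6 CPM in knockouts (-0.59, edgeR adjusted p 0.152), so knockout 3 lay among the wild types. Syt13 (-0.32), Syt4 (-0.09) and Syt11 (-0.0080) overlapped between genotypes.

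None of the fusion and priming genes passed. Among the 8 SNARE and clamp genes the median log2 fold change was -0.20. Nsf (-0.34, edgeR adjusted p 0.0636) and Napb (-0.27, edgeR adjusted p 0.0973), which take used SNARE complexes apart, separated the genotypes downward (11.1% of all genes did). Snap25 (-0.27), the other plasma membrane SNARE, did so barely, with wild type 3 at 312.96 CPM and knockout 3 at 312.43 CPM. Stx1a stood at 127, 131 and 127 CPM in wild types and at 93.4, 93.1 and 128 CPM in knockouts, so knockout 3 was level with the wild types. The vesicle SNAREs Vamp2 (-0.13) and Vamp1 (0.09) and the complexins Cplx1 (-0.09) and Cplx2 (-0.06) overlapped. Rims1 (-0.28), Rims2 (-0.25), Unc13c (-0.32) and the giant scaffold Pclo (-0.35) separated the genotypes without passing, while Rims3 (-0.14), Unc13a (-0.16), Unc13b (-0.12) and Bsn (0.12) overlapped.

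Of the remaining vesicle genes 3 separated the genotypes downward (11.1% of all genes did), none of them past the threshold. Sv2b (-0.36, edgeR adjusted p 0.0665), Synpr (-0.34, edgeR adjusted p 0.0811), a relative of synaptophysin, and Rab3c (-0.24) lay lower in every knockout. Sv2a (-0.16), Syp (-0.12), Syngr1 (-0.05), Syngr3 (-0.02), the synapsins Syn1 (-0.27), Syn2 (-0.15) and Syn3 (-0.34), Rab3a (0.04), Rab3b (-0.22) and Dnm1 (-0.24) overlapped.

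The P0 shift was not the same size in every library. In log2(CPM + 1) against the mean of the wild types, the median over the 47 genes was -0.22 in knockout 1, -0.24 in knockout 2 and -0.13 in knockout 3. On the same scale, 42 genes were lower in the knockouts within library numbers 1407 to 1410 (median -0.28). Between 1415 and 1416 33 were (median -0.07), and 30 were lower in both. Knockouts 1 and 2 also had higher mouse numbers than knockout 3 and all wild types. Genotype within library numbers 1407 to 1410 therefore ran together with mouse number. The labels do not say which animals shared a litter, and the part of mouse number in the shift was not tested. Tested on numbers 1407 to 1410 alone, 22 release genes passed downward and 1 upward, against 12.9% of all genes. With the series as a term 9 passed, all downward, against 2.87% of all genes. Without knockout 3 13 passed (4.69% of all genes) and without wild type 3 4 passed (1.51%), all downward. Without any 1 of the other 4 libraries edgeR called 0 release genes, and only 0.00604% to 0.0906% of all genes. DESeq2 called 8 on all 6 libraries, all downward (2.72% of all genes).

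**Figure D3:**
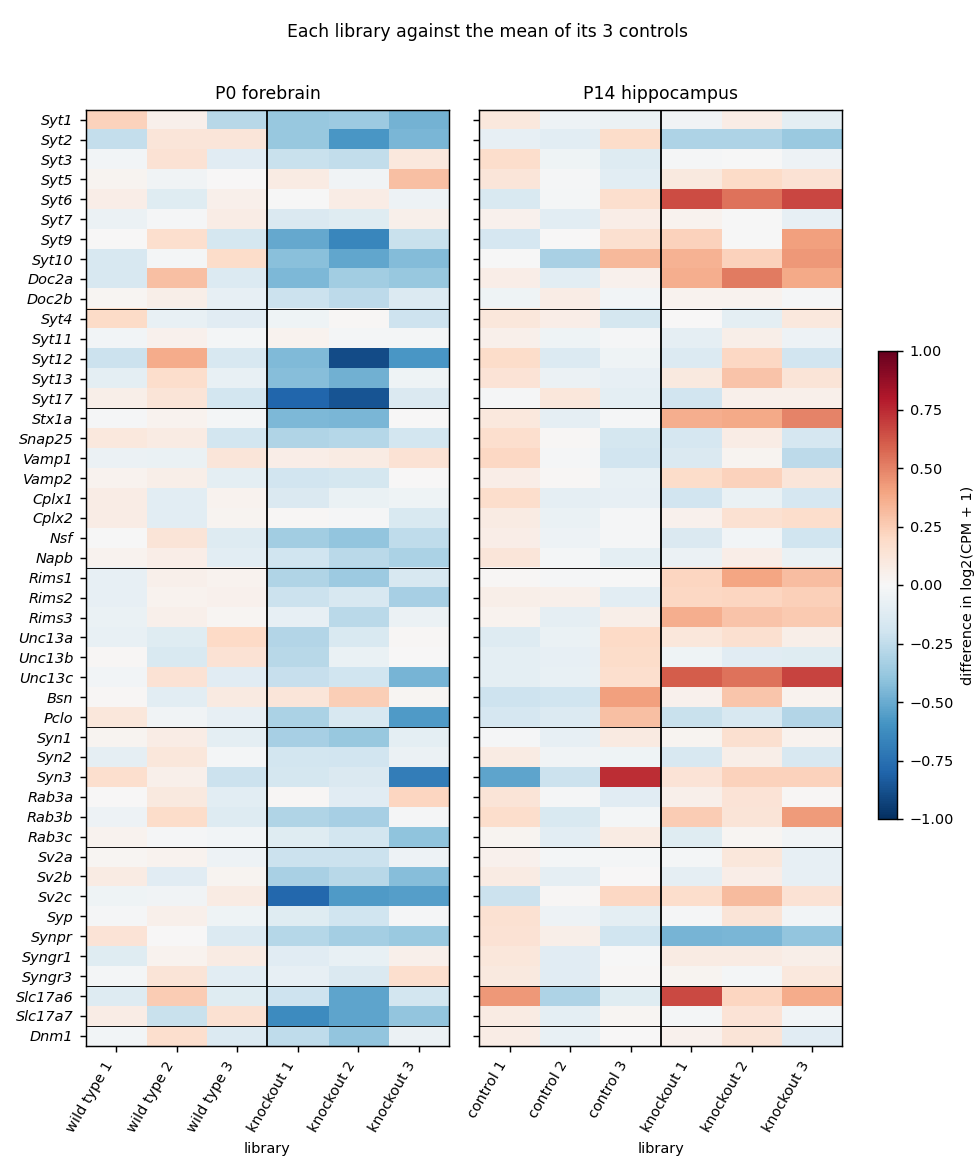
Each library's level of the 47 release genes as a difference in log2(CPM + 1) from the mean of its 3 controls, blue for lower and red for higher, at P0 on the left and P14 on the right. Knockouts 1 and 2 at P0 are blue over most rows and knockout 3 over fewer, and at P14 control 3 stands out in Syn3, Bsn and Pclo.

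Markers of cell types moved beside the P0 values. Of all genes tested 0.192% passed upward and 0.717% downward, and 6.95% reached an unadjusted p under 0.05 upward. Of 10 pan-neuronal genes 3 passed downward and 0 upward (median -0.09), with sums of 6773 to 7116 CPM in wild types and 6491 to 6951 CPM in knockouts. Of 8 dentate granule markers tested 2 passed downward and 0 upward (median -0.54, sums 216 to 253 against 169 to 184 CPM). Stxbp6 of that list, also a gene of the wider release list, had means of 56.8 CPM in wild types and 39.2 CPM in knockouts. Whether the dentate granule and CA pyramidal lists report those cells in whole P0 forebrain was not tested. Of 6 immature neuron markers 2 passed upward and 0 downward (median 0.28, sums 2814 to 3326 against 3184 to 3851 CPM). Astrocyte markers (9 genes, median -0.35, 1 passed downward) summed to 698 to 898 CPM in wild types and 658 to 667 CPM in knockouts. Striatal projection markers (1 of 10 passed downward, median -0.14) summed to 377 to 424 and 344 to 361 CPM. CA pyramidal markers (0 of 8 passed, 4 upward at an unadjusted p under 0.05, median 0.18) summed to 620 to 708 and 778 to 831 CPM, so these were higher in every knockout. Cortical excitatory markers (1 of 11 passed upward, median 0.18) summed to 1562 to 1937 and 1891 to 2136 CPM. Without a called member, the summed markers of oligodendrocyte precursors (241 to 284 against 210.1 to 216 CPM), oligodendrocytes and deep layers were lower in every knockout and those of choroid plexus and ependyma higher (673 to 845 against 897 to 990 CPM). In the microglial and the thalamic and hypothalamic lists 1 gene each passed downward, and their sums overlapped. No defining marker of these lists was at 0 in either group, and their part in the P0 result was not tested.

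At P14 a few release genes of the active zone and of fusion were higher in the knockout hippocampus, and 1 vesicle membrane gene was lower. Unc13c, Stx1a, Syt6, Rims1 and Rims3 rose and Synpr fell. These 6 of 47 genes compare with 1.99% of 17208 tested genes that passed, 1.21% upward and 0.773% downward. The median log2 fold change of the 47 genes was 0.04, against -0.0073 for all genes, and 29 genes lay above 0 (48.5% of all genes). An unadjusted p under 0.05 was reached upward by 10 and downward by 2 (7.84% and 7.4% of all genes), and 8 release genes separated the genotypes upward and 2 downward (9.43% and 10.6%). Of the 8 active zone genes 3 passed and 4 separated the genotypes upward.

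**Figure D4:**
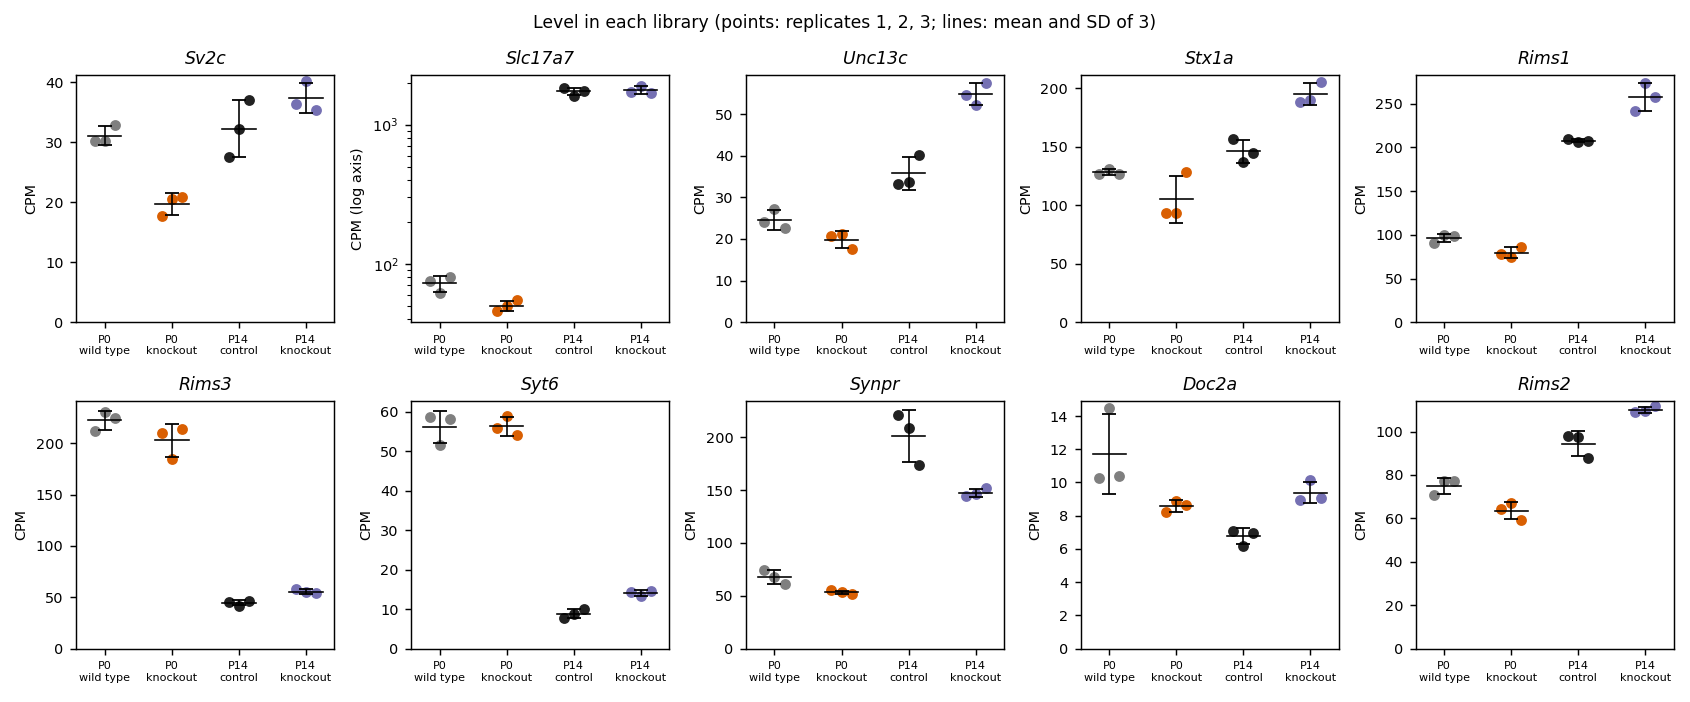
CPM of 10 release genes in each of the 12 libraries, on linear axes from 0 except for Slc17a7 (log axis); points are replicates, lines the mean and SD of 3. Sv2c and Slc17a7 separate the P0 groups, while Unc13c, Stx1a, Rims1, Rims3, Syt6 and Synpr separate the P14 groups.

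Unc13c (ENSMUSG00000062151, chromosome 9 from 73479422 to 73968966), a priming factor best known from cerebellar granule cells, stood at 33.2, 33.8 and 40.2 CPM in controls and at 54.6, 52.3 and 57.5 CPM in knockouts. All knockouts lay clear of all controls, control 3 being the nearest. The log2 fold change was 0.63 (SE 0.09, edgeR adjusted p 0.00263), and it passed in all 6 fits with 1 library left out, with values from 0.57 to 0.72. Its paralogs did not pass: Unc13a, with control 3 at 491 CPM above all knockouts at 446 to 478 CPM, had 0.11 and Unc13b had -0.09.

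Stx1a (ENSMUSG00000007207, chromosome 5 from 135023482 to 135051100) stood at 157, 137 and 144 CPM in controls and at 188, 190.2 and 205.5 CPM in knockouts. The lowest knockout was above the highest control, with a log2 fold change of 0.43 (SE 0.07, edgeR adjusted p 0.00725). The call was lost without control 2 (edgeR adjusted p 0.0742). The partners of Stx1a in the SNARE complex did not pass: Vamp2 separated the genotypes at 0.19 (edgeR adjusted p 0.192), and Snap25 overlapped at -0.08.

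Rims1 (ENSMUSG00000041670), the scaffold that joins Rab3 to the priming factors and to calcium channels, stood at 209, 206 and 207 CPM in controls and at 241, 273 and 257 CPM in knockouts. The controls had an SD of 1.79 CPM, and all knockouts were higher (log2 fold change 0.32, SE 0.07, edgeR adjusted p 0.0254). Rims3 (ENSMUSG00000032890) stood at 45.8, 41.8 and 46.4 CPM against 57.8, 54.7 and 53.7 CPM (0.32, SE 0.08, edgeR adjusted p 0.0496). Rims2 also separated the genotypes, at 98.1, 97.6 and 87.8 against 109, 109.5 and 112 CPM (0.23, edgeR adjusted p 0.123). Leaving out any library but control 3 ended the calls of Rims1 and Rims3. The scaffolds Bsn (0.10) and Pclo (-0.23) overlapped, and P14 control 3 was their highest library, at 545 and 281 CPM.

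Syt6 (ENSMUSG00000027849), a synaptotagmin found in deep-layer cortical neurons among others, was scarce at P14 but separated cleanly, at 7.86, 8.71 and 10.02 CPM in controls and 14.4, 13.3 and 14.6 CPM in knockouts. The log2 fold change was 0.68 (SE 0.13, edgeR adjusted p 0.0157), the largest of the 47 at P14. A pseudogene, Atg4a-ps, lies on the opposite strand of its exons, and counts of either strand cannot tell them apart. With 1 library left out it passed in 2 of 6 fits.

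Synpr (ENSMUSG00000056296), abundant in the mossy fibre terminals of dentate granule cells, stood at 221, 209 and 174 CPM in controls and at 145, 146 and 152 CPM in knockouts. Knockouts lay close together below all controls, of which control 3 was the lowest (log2 fold change -0.44, SE 0.08, edgeR adjusted p 0.0137). With 1 library left out it passed in 1 of 6 fits, that without control 3. With an offset for GC content 4 release genes passed upward and 0 downward: Synpr (-0.30, edgeR adjusted p 0.0662) and Rims3 (0.27, edgeR adjusted p 0.114) no longer passed. Without control 3 10 release genes passed upward and 1 downward, against 10.3% of all genes, and without control 2 edgeR called 1, upward.

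The 5 largest P14 values that did not pass went in both directions. Doc2a stood at 7.11, 6.199 and 6.96 CPM in controls and at 8.95, 10.1 and 9.09 CPM in knockouts, which did not overlap (0.49, edgeR adjusted p 0.101); its exons overlap those of Ino80e on the other strand. Syt2 went the other way without overlap, at 18.1, 17.8 and 22.04 against 15.4, 15.4 and 14.7 CPM (-0.34, edgeR adjusted p 0.156). Slc17a6 (0.42), Syt10 (0.40) and Rab3b (0.28) overlapped between genotypes. Slc17a7, which fell at P0, stood at 1834, 1620.1 and 1753 CPM in P14 controls and at 1706, 1903 and 1703 CPM in P14 knockouts (0.04, edgeR adjusted p 0.857). The other members not named here had P14 log2 fold changes between -0.13 and 0.24.

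Marker lists again moved beside these values. Of all genes tested 1.21% passed upward and 0.773% downward, and 7.84% and 7.4% reached an unadjusted p under 0.05. Of 10 dentate granule markers 9 passed downward, with Prox1 at -0.76 and C1ql2 at -0.89, and their sum was 646 to 698 CPM in controls and 441 to 483 CPM in knockouts. Of 10 cortical excitatory markers tested 4 passed upward (Mef2c by 0.60), with sums of 981 to 999 CPM in controls and 1077 to 1140 CPM in knockouts. Of 10 deep layer and subplate markers 4 passed upward (Foxp2 2.27), with sums of 256 to 288 and 293 to 331 CPM. Immature neuron markers (4 of 6 passed downward) summed to 548 to 609 and 388 to 471 CPM, and striatal projection markers (1 of 10 passed upward) to 157 to 195 and 202 to 311 CPM. In both contexts Drd1 counts in the deep layer and the striatal list, and the release gene Slc17a6 in the thalamic and hypothalamic list. The 10 pan-neuronal markers held 0 that passed, 2 of them upward and 1 downward at an unadjusted p under 0.05, and summed to 4783 to 5097 and 4884 to 5077 CPM. Of the other lists, 1 CA pyramidal marker passed upward and 1 downward, 1 inhibitory and 1 thalamic and hypothalamic marker passed downward and 1 choroid plexus and ependymal marker upward, with sums that overlapped between genotypes. Endothelial markers (193.3 to 204.7 against 163 to 182 CPM) and mural and meningeal markers summed lower in every knockout, without a called member. Sim1 of the thalamic and hypothalamic list was at 0 in all P14 controls, and no other marker of these lists was at 0 throughout a group. Their part in the values of Synpr, Syt6, Stx1a, Unc13c, Rims1 and Rims3 was not tested.

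The difference between the genotype effects was then tested over all 12 libraries, which are the same ones used above. For 9 release genes it passed, every time with a higher value at P14 than at P0, against 1.79% of 18189 genes, 1.37% upward and 0.423% downward. The difference of log2 fold changes was above 0 for 42 of the 47 genes (48.7% of all genes), with a median of 0.25 against -0.01. An unadjusted p under 0.05 was reached upward by 22 and downward by 0 (8.42% and 6.9% of all genes). Tissue, age, Cre line and control genotype differ together between the contexts and cannot be told apart.

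By role, the active zone gave 4 of the 9. Unc13c had the largest difference of the 9, with -0.32 at P0 and 0.63 at P14 in the separate fits and an interaction of 0.93 (SE 0.15, edgeR adjusted p 0.00186). Rims1 (0.59, edgeR adjusted p 0.00605), Rims2 (0.46, edgeR adjusted p 0.0311) and Rims3 (0.45, edgeR adjusted p 0.0431) had the same signs in each context. Stx1a had 0.70 (SE 0.14, edgeR adjusted p 0.0111), from -0.29 at P0 and 0.43 at P14.

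Sv2c (0.87, SE 0.15, edgeR adjusted p 0.0045) and Slc17a7 (0.56, SE 0.13, edgeR adjusted p 0.0334) were the genes called at P0, and neither was called at P14. The P14 value of Sv2c was 0.22 with overlapping genotypes, at 27.5, 32.3 and 37.1 CPM in controls and 36.4, 40.2 and 35.5 CPM in knockouts. Syt6 (0.67, SE 0.14, edgeR adjusted p 0.0179) was called at P14 alone, and its P0 libraries stood at 51.5 to 58.8 CPM in wild types and 54.1 to 58.9 CPM in knockouts. Doc2a (0.92, SE 0.22, edgeR adjusted p 0.0325) was called in neither context, with wild-type P0 libraries at 10.3, 14.5 and 10.4 CPM and P0 knockouts at 8.19, 8.87 and 8.65 CPM. Unc13c, Sv2c, Rims1 and Stx1a kept their calls in all 12 fits that left out 1 library, Syt6 in 8, Rims2 and Slc17a7 in 6, Doc2a in 4 and Rims3 in 3. Synpr, with log2 fold changes of -0.34 and -0.44 in the separate fits, had a difference of -0.11 (edgeR adjusted p 0.73).

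Shares within paralog pairs were compared next, as the percentage of 1 paralog in the summed reads per kilobase of the pair. Over 7 pairs in 2 contexts, none of the 14 comparisons could pass: an exact two-sided permutation test of 3 against 3 libraries cannot go below 0.1, which is 0.35 after Benjamini-Hochberg adjustment over the 14. At P14 4 pairs reached that smallest p, all with a lower share in the knockouts. The share of Cplx1 in the complexins was 44.1%, 42.1% and 41.3% in controls and 38.6%, 38.9% and 36.8% in knockouts, a difference of -4.40 percentage points. Unc13b made up 8.15%, 7.94% and 7.94% of Unc13a and Unc13b in controls and 7.24%, 6.70% and 7.15% in knockouts. Vamp1 made up 2.60 ± 0.232% and 2.11 ± 0.134% of the vesicle SNARE pair, and Syt2 1.48 ± 0.235% and 1.17 ± 0.0462% of Syt1 and Syt2 (SD, n = 3 each). The groups did not overlap in these 4 pairs.

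**Figure D5:**
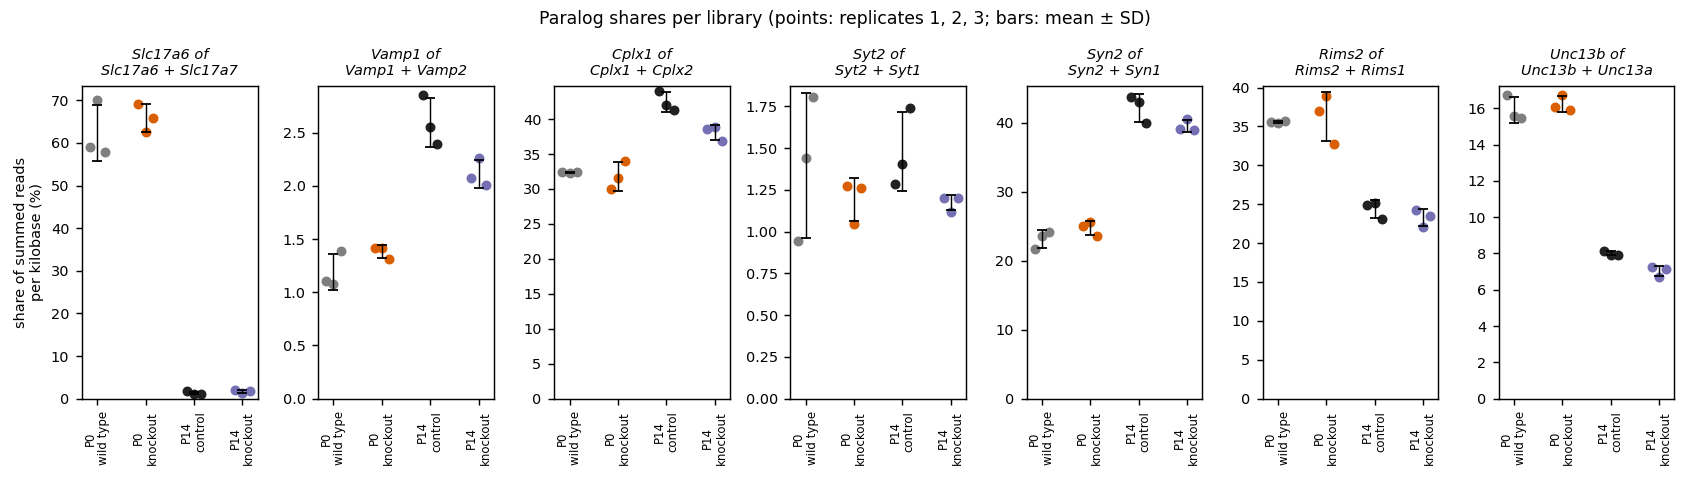
Share of the first-named paralog in the summed reads per kilobase of each of 7 pairs, in percent, for the 3 libraries of each group; bars show the mean and SD. At P14 the knockouts lie below the controls for Vamp1, Cplx1, Syt2 and Unc13b, and the Slc17a6 share lies between 58.0% and 70.0% at P0 and between 1.12% and 2.12% in the P14 libraries.

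The other pairs overlapped between genotypes in each context. Slc17a6 made up 62.3 ± 6.64% of the glutamate loaders in P0 wild types and 65.9 ± 3.30% in P0 knockouts (exact p 0.5), and 1.33 ± 0.309% and 1.75 ± 0.367% at P14 (exact p 0.2). For Syn2 the P14 share was 42.2 ± 2.03% in controls and 39.5 ± 0.827% in knockouts (exact p 0.2), and for Rims2 24.4 ± 1.13% and 23.3 ± 1.07% (exact p 0.3). At P0 the differences of the 7 pairs lay between -0.54 and 3.57 percentage points, with exact p from 0.2 to 0.7.

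Other genes of the release pathway were read from a wider list of 85 genes, of which 84 were matched by symbol. At P0 1 of 79 tested passed, downward, which is 1.27% beside 0.909% of all genes. The median log2 fold change was -0.11, with 62 genes below 0 (50.1% of all genes). That gene was Cadps2, a priming factor of dense-core vesicles, at 34.9, 36.9 and 28.6 CPM in wild types and 19.6, 16.2 and 22.4 CPM in knockouts (-0.78, SE 0.13, edgeR adjusted p 0.0208). At P14 2 of 79 passed upward and 2 downward (1.21% and 0.773% of all genes), with a median of -0.0079. Rims4, a short relative of Rims3, rose from 107, 101 and 102 CPM to 131, 132 and 138 CPM (0.38, edgeR adjusted p 0.00918). Cplx3, a complexin of retina and cortical subplate that is also on the deep layer marker list, rose from 3.12, 2.18 and 0.949 CPM to 11.7, 18.4 and 14.3 CPM (2.85, edgeR adjusted p 0.00543). Stxbp6, a SNARE-binding protein that is also on the dentate granule marker list, fell (-0.52, edgeR adjusted p 0.00341), as did Slc17a8, the third vesicular glutamate transporter (-0.84, edgeR adjusted p 0.0176). Of the wider list Cplx3, Cadps2 and Rims4 were among the genes that passed the interaction, with higher values at P14 in each.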

How the data were processed

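The authors deposited unnormalized read counts for Ensembl genes in a file for each library, with an unstranded column and a column for each strand. The file names give STAR's gene counting on GRCm38 with annotation release 102, and the submitters' processing notes name STAR 2.7.5a and edgeR 3.12. The unstranded counts were used, since each strand held about the same share. Symbols, exon lengths and coordinates came from GENCODE vM21 (GRCm38), which matched 55141 of 55487 identifiers, and promoters from RefSeq.

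Each comparison was fitted across all genes with edgeR 4.0.16 in R 4.3.3 (filterByExpr, TMM, robust glmQLFit, glmQLFTest, Benjamini-Hochberg, threshold 0.05), P0 and P14 on their own 6 libraries and the interaction on all 12. CPM were scaled by TMM over the 12 libraries, and reads per kilobase used the union of exons. The fits were tried on simulated data in which 200 genes had a fold change of 2. They recovered 77.5% of these at P0, 78% at P14, 62.5% for the interaction and 75.5% between controls. Of the calls 9.36%, 11.9%, 5.3% and 6.21% were false, among 16176, 17208, 18189 and 17355 genes. The false share was thus above the threshold of 0.05 in each comparison. Simulated libraries of a group shared 1 mean, without differences between library series or a library that stood apart. Smaller fold changes, such as those of most release genes between genotypes, were not simulated, so their recovery is not known. Replicate pairs differed by more than sampling noise, so each library counted as 1 sample. The exons of 16 of the 47 genes overlap another gene, mostly on the other strand.

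Results of some genes of the wider and marker lists are not reported here. The members, the lists and the tests were chosen with earlier results of these data known. Values of the single libraries are given for members called for genotype or interaction, in at least 1 context. Also described are the 5 largest other changes per context among genes averaging 1 log2 CPM or more, and the paralog pairs. The same holds for the 5 largest rises and all falls between controls, and for the highest member of each role. For these, library values, ranges, mean and SD, or the log2 fold change alone are given. Alternatives were RLE and upper-quartile scaling, the larger strand column, DESeq2 1.42.0, no filter or at least 10 counts in every library, a non-robust fit, 1 fit on 12 libraries, GC and length offsets, a library series term, library numbers 1407 to 1410 alone, an adjusted p under 0.1 and leaving out each library.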

Additional observations from a re-analysis of the deposited data

Results flagged for a closer look

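The genotype difference differed between P0 forebrain and P14 hippocampus, by edgeR's interaction test at an adjusted p under 0.05, for 9 of the 47 release genes and for genes of the wider list, of which 3 are given. In each case the P14 log2 fold change was above the P0 one, and the differences are given on the log2 scale. Among the active zone genes it was 0.93 for Unc13c, 0.59 for Rims1, 0.46 for Rims2 and 0.45 for Rims3, with 0.48 for their relative Rims4. It was 0.67 for Syt6 and 0.92 for Doc2a among the calcium sensors, and 0.70 for Stx1a. The vesicle genes were Sv2c with 0.87 and Slc17a7 with 0.56, and Cadps2, the priming factor of dense-core vesicles, had 0.82. Cplx3 had 3.37, on at most 2.35 CPM in any P0 library.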

How the results depend on the processing

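At P0 the count of release genes called (2, both lower) was 5 in 1 fit on 12 libraries, 8 with DESeq2, 8 with the GC content offset, 8 at an adjusted p under 0.1, 9 with the series term, 11 without a filter, 1 in the non-robust fit, 0 in the larger strand column and 23 (22 lower, 1 higher) in library numbers 1407 to 1410 alone. Leaving out 1 library gave 0 to 13: 0 without knockout 1, knockout 2, wild type 1 or wild type 2, 13 without knockout 3 and 4 without wild type 3. At P14 (6) it gave 1 to 11, the highest without control 3 and the lowest without control 2, with 2 or 3 without each other library. For the interaction (9) it gave 4 to 14, the highest without P0 knockout 3 and the lowest without P14 knockout 1 or P14 control 2. The other settings stayed within 1.5 times these counts, and the 42 calls between controls stayed at 41 to 43. Of all genes, the P0 share called was 0.909% in the main fit, 1.56% in 1 fit on 12 libraries and 2.72% with DESeq2. It was 2.4% with the GC offset, 2.86% at an adjusted p under 0.1, 2.87% with the series term and 1.99% unfiltered. The non-robust fit gave 0.309%, the larger strand column 0.685% and numbers 1407 to 1410 alone 12.9%. Leaving out 1 library gave 0.00604% to 4.69% at P0, 0.595% to 10.3% at P14 and 0.669% to 4.85% for the interaction. Of 188 values (47 genes in 4 comparisons), 59 were called and 0 of these changed sign in any setting. Among the values not called 42 changed sign in at least 1 setting, such as Syt6 at P0 and Slc17a7 at P14. Differences of P0 paralog shares changed sign for Cplx1 (-1.65 to 0.41 percentage points without 1 library), Syt2 (-0.43 to 0.0021), Rims2 (-0.70 to 2.38, and -0.42 in the larger strand column) and Unc13b (-0.20 in the larger strand column). The cause was not tested. No paired analysis was possible because the labels give no replicate numbers shared between the groups. With 3 libraries a group, a member that did not pass is not shown to be the same in both genotypes, and genes under 5 CPM such as Syt10 and Syt12 have wide errors.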

Other observations

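Over the 6 P14 libraries, the genes whose log2 CPM followed Unc13c most closely were mt-Nd3 (Pearson r 0.996), Syt6 (0.994), Trim32, Gm43808 and BC064078, among 187 genes with r above 0.95. Unc13c was in turn among the 5 closest to Syt6 (0.994), which was led by Fnbp1l (0.997) and held Trim44, Ptgfrn and BC064078 as well. For Stx1a the closest were Hsdl1 (0.993) and Ntsr1 (0.991), followed by Evl, Gpr6 and Dlx2, and for Synpr Fbxl5 (0.998), Gm29856, Mfsd14b, Zfp37 and Ndufaf4. These values describe 6 libraries in which the genotypes differ, so any gene that separates the genotypes scores high.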
